A study of Mus musculus with 5 samples.

Results

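This comparison covers cultured mouse dendritic cells (DCs) kept with Ptgs+/+ 5555 melanoma cells against the untreated culture, in each class of DC that the authors annotated. It rests on 7228 cells, 3344 untreated and 3884 with Ptgs+/+ cells, of 10812 in the 3 cultures and 31635 annotated cells in the whole series, which otherwise holds leukocytes of mouse tumours. DCs were grown from bone marrow of C57BL/6 mice by a method based on FLT3L and GM-CSF and collected on day 10. 5555 is a mouse melanoma line, and Ptgs names the genes of the cyclooxygenases, the enzymes that make prostaglandins. A culture with Ptgs-/- 5555 cells was the remaining condition, and its values stand beside the others without a comparison, because it shares the same untreated culture. Live CD45+ cells were sorted from each culture, tagged with antibody hashtags and run together in 1 droplet library of 3' RNA. Each condition was 1 culture, so the differences below have no replicate check, no test and no p-value, and a difference between conditions cannot be told apart from a difference between 2 culture wells. The classes share the same 2 cultures and are not replicates of each other. The labels used here do not give the number of mice, the sex, the age or the dose and length of contact with the tumour cells.

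DCs take up antigen, and when they sense danger they mature: they raise the chemokine receptor CCR7 and co-stimulatory proteins, lower antigen uptake and move to lymph nodes to prime T cells. Type 1 conventional DCs (cDC1) present antigen of dead cells to CD8 T cells, type 2 conventional DCs (cDC2) mainly prime CD4 T cells, and plasmacytoid DCs (pDC) make type I interferon. Prostaglandin E2, made by many tumours, raises cyclic AMP in DCs through the receptors EP2 and EP4, and is known to promote CCR7-dependent migration while dampening other DC functions. Cells that mDC names in the annotation had 6 of 14 fixed markers of mature CCR7+ DCs among their 10 leading genes, including Ccl22, Fscn1 and Ccr7. Marker checks also fitted cDC1 (3 of the 10 leading genes), cDC2 (3) and pDC (4), while the leading genes of proliferating cDC1 were cell cycle genes. The leading genes of the cluster labelled proliferating cDC2 held no cDC2 marker but Chil3 of monocytes, Cox6a2 of plasmacytoid DCs and Prtn3 of progenitors, so it is treated here as a cluster and not as a type.

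The untreated culture gave 35150997 UMIs (unique molecular identifiers, counts of captured RNA molecules) and the culture with Ptgs+/+ cells 37015904. Median UMIs per cell were 9717.5 and 8903.5, median genes per cell 2442.5 and 1996.0, and the median mitochondrial share 4.48% and 3.59%. Cells numbered 1165 untreated and 1111 with Ptgs+/+ cells for cDC1, 965 and 581 for proliferating cDC1, 663 and 750 for cDC2, 137 and 182 for the cluster labelled proliferating cDC2, 214 and 1060 for mDC, and 200 and 200 for pDC. In each class 2 to 8 of its 10 leading genes differed by more than 1.5-fold between the cultures, so the class shares are not compared. The amount of RNA from the tumour cells is not known, because expression of the genes listed here in the melanoma line was not tested. Summed, the melanoma genes stood no higher with tumour cells than in the untreated culture, so the sum gives no measure of tumour RNA. The 13 melanoma genes in the matrix, of 20 listed, summed to 5.58 CPM over the pooled UMIs untreated, 5.35 with Ptgs+/+ cells and 5.5 with Ptgs-/- cells, and Pmel, a pigment cell gene, had 14, 21 and 14 UMIs. The 20 genes listed for non-leukocyte mesenchymal cells summed to 11.4, 19.9 and 20.9 CPM, and their part in the differences below was not tested. Of these, Igfbp4 had 203, 356 and 341 UMIs, Thy1 38, 110 and 94, and Timp3 28, 99 and 96. Tpm2 had 94, 93 and 116 UMIs and the collagen gene Col1a1 0, 1 and 1. Whether these UMIs came from mesenchymal cells was not tested.

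Cells in which Ccr7 and Fscn1 were both detected, a count made without the annotation, made up 5.2% of untreated cells (174 of 3344; exact Clopper-Pearson 95% interval 4.48% to 6.01%). They made up 18.1% of cells with Ptgs+/+ tumour cells (702 of 3884; 16.9% to 19.3%) and 7.92% with Ptgs-/- tumour cells (284 of 3584; 7.06% to 8.86%). The interval with Ptgs+/+ cells lay above that of the untreated culture, and these intervals cover counting error only. CCR7 guides migration to lymph nodes and fascin, the product of Fscn1, bundles actin in the dendrites of mature DCs. With every cell thinned to 5000 UMIs the shares were 3.52% and 14.4%, after leaving out 334 and 379 shallower cells. Within mDC the pair was present in 64.5% of untreated cells and 62.8% of cells with Ptgs+/+ tumour cells, with median depths of 9052 and 7281 UMIs, and thinned to 5000 UMIs the order turned, with 50.9% (43% to 58.8%) and 55.7% (52.3% to 59%). In pDC, which should lack the pair, it was found in 0 of 200 cells in each of these cultures, which allows a share of cells with UMIs of both genes of up to 1.5%, at median depths of 4214 and 4335 UMIs. In cDC2 it was found in 0 of 663 untreated cells, which allows up to 0.452%, and in 1.07% of cells with Ptgs+/+ tumour cells, and after thinning in 0 of 641 and in 2 of 733 cells, 0% to 0.574% and 0.0331% to 0.982%, intervals that overlap.

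**Figure D1:**
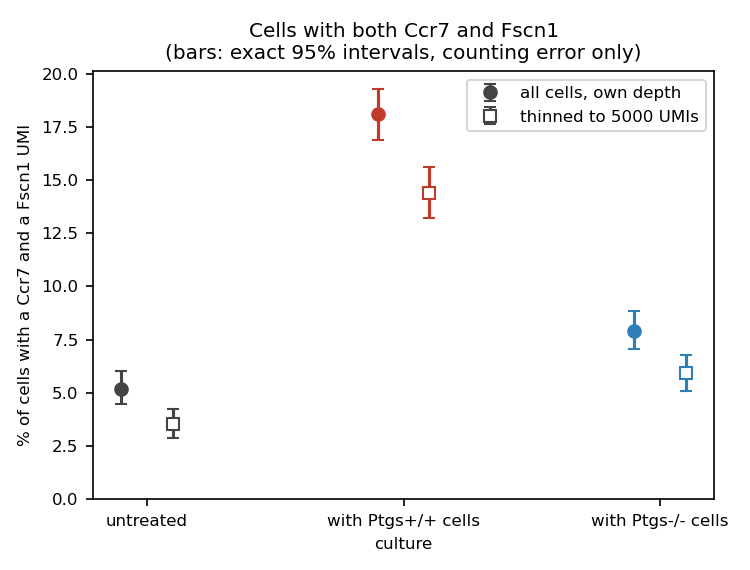
Share of cells with a UMI of both Ccr7 and Fscn1 in each culture, in % of cells, at each cell's own depth (filled) and thinned to 5000 UMIs (open), with exact 95% intervals for counting error. The culture with Ptgs+/+ cells stands at 18.1% and 14.4%, above the untreated culture at 5.2% and 3.52%.

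Folds are differences of log2(mean CPM over cells + 5), with Ptgs+/+ cells minus untreated, where CPM scales the UMIs of every cell to the same total. They are given relative to the median gene of the class, because that median lay between -0.28 in mDC and -0.11 in the cluster labelled proliferating cDC2. "Higher" and "lower" mean a fold past 1.5, a size and not a test, and the +5 makes folds of sparse genes smaller. Of the genes seen in at least 10% of cells of either culture, 492 of 5932 (8.29%) were higher and 370 (6.24%) lower in cDC1. In proliferating cDC1 624 of 7317 (8.53%) were higher and 548 (7.49%) lower, and in cDC2 273 of 6787 (4.02%) and 207 (3.05%). The cluster labelled proliferating cDC2 had 660 of 7922 (8.33%) higher and 651 (8.22%) lower, mDC 572 of 6024 (9.5%) and 654 (10.9%), and pDC, the shallowest class, 575 of 4609 (12.5%) and 585 (12.7%). Without subtracting the median the counts turned towards lower genes: 255 higher and 1019 lower in cDC1, 334 and 1173 in proliferating cDC1, 177 and 440 in cDC2, 436 and 1041 in the cluster labelled proliferating cDC2, and 213 and 1512 in mDC.

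Of 4153 genes seen in every class, 41 (0.987%) were higher in all 6 and 11 (0.265%) lower in all 6. Without the median subtracted 16 were higher and 31 lower in all 6. The 41 included genes that answer to low oxygen or metabolic stress (Hilpda, Ddit4, Ero1l, Vegfa, Slc2a3), genes of NF-kB signalling (Nfkbia, Map3k14), the maturation marker Cd83, the decoy receptor for interleukin-1 Il1r2 and the interferon-induced membrane proteins Ifitm1 and Ifitm2. The 11 included Cd180, a relative of the Toll-like receptors, Naaa, a lysosomal amidase that marks cDC1, and P2ry6, a receptor for extracellular nucleotides.

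Promoters of the shared genes are shown because these genes stood higher in every class and include known targets of hypoxia-inducible factors and of cyclic AMP. For 35 of the 41 genes RefSeq (build GRCm38.p6) gave at least 1 window of the 250 bases before a start site. Capitals mark, on either strand, the letters TGACG of the cAMP response element (CRE) half-site and ACGTG, the core bound by hypoxia-inducible factors, printed 5' to 3' on the gene's strand. Hilpda, at chr6:29272376-29272625 (+), is shown for its low-oxygen role and its high fold, Ddit4, at chr10:59951771-59952020 (-), likewise, and Mif, at chr10:75860278-75860527 (-), and Ppp1r15a, at chr7:45526269-45526518 (-), as the 2 shared genes with the full element TGACGTCA, chosen after their values were seen.
Hilpda: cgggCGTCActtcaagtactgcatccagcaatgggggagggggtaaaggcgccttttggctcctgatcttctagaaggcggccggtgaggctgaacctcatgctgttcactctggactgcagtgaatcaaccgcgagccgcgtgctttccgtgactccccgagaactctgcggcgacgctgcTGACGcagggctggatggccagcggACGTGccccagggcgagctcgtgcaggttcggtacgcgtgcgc
Ddit4: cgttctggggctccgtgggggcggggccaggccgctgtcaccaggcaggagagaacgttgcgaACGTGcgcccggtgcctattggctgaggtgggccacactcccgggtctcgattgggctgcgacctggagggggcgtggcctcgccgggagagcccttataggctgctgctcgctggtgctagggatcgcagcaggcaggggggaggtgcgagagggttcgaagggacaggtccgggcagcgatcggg
Mif: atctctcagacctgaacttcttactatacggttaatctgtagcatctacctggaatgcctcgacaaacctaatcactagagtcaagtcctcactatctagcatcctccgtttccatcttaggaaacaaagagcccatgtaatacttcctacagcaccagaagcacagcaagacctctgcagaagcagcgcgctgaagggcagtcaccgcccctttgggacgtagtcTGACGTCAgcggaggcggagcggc
Ppp1r15a: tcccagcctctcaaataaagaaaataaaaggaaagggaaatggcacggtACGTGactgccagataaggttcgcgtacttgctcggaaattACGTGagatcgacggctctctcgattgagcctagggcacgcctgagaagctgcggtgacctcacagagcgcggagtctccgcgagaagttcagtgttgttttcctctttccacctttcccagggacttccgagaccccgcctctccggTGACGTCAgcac

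In these windows, read on both strands, ACGTG was present for 14 of the 35 genes (40%) and for 18.5% of all 27025 genes with windows of this kind. TGACG was present for 9 (25.7%) against 19.8% of genes, and it lies within TGACGTCA, which was present for 2 (5.71%) against 1.77%. Those 2, Mif and Ppp1r15a, had the lowest median log2 folds of the 41 shared higher genes, 0.75 and 0.73. TGAGTCA, the AP-1 element, was present for 4 (11.4%) against 5.16%. Of the 9 shared lower genes with a window, 2 held ACGTG and 1 held TGACG. The 27025 genes include genes not seen in these cells. The shares over the 4153 genes seen in every class, from which the shared genes come, were not counted. A match is a run of letters and not a bound site, and with so few genes these shares carry no test.

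Hilpda, which encodes a lipid droplet protein that low oxygen induces, averaged 23.7 CPM in untreated cDC1, 124 with Ptgs+/+ cells and 81.5 with Ptgs-/- cells. Its log2 fold with Ptgs+/+ cells was 2.40, and the exact 95% interval of the UMI ratio, which covers counting error only and is not relative to the median gene, was 4.18 to 5.48. In mDC, where its fold was lowest, it averaged 78.8, 153 and 118 CPM. Hilpda thus stood higher in the culture with Ptgs+/+ cells in every class, with log2 folds of 1.2 to 2.58. Ddit4, an inhibitor of mTOR that stress induces, averaged 20.6 CPM in untreated cDC1, 85.8 with Ptgs+/+ cells and 60.3 with Ptgs-/- cells. Its log2 folds spanned 1.24 in cDC2 to 2.24 in proliferating cDC1.

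Ifitm2, an interferon-induced protein of membranes, had the highest median fold of the 41, 2.10 on the log2 scale. It averaged 768 CPM in untreated cDC1, 3650 with Ptgs+/+ cells and 2400 with Ptgs-/- cells, and 314, 1590 and 703 CPM in pDC. Its neighbour Ifitm1 averaged 3700, 19400 and 9940 CPM in cDC1, with log2 folds from 0.66 in the cluster labelled proliferating cDC2 to 2.63 in cDC1. Ifitm1 and Ifitm2 are related in sequence, so reads could be divided between them. The further genes among the 10 highest were Klrk1 (the NKG2D receptor), Ero1l (an oxidase of the endoplasmic reticulum), Gm34084, Stat4 (which signals for interleukin-12) and Cdkn1a (the cell cycle inhibitor p21), with median log2 folds of 1.46 to 1.61. Cdkn1a averaged 125, 412 and 287 CPM in cDC1 and 681, 1040 and 801 CPM in mDC. For Stat4 in the cluster labelled proliferating cDC2 the interval of the UMI ratio, 0.889 to 3.38, included 1.

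Among the shared lower genes, Cd180 averaged 112 CPM in untreated cDC1, 18.6 with Ptgs+/+ cells and 40.1 with Ptgs-/- cells, and 247, 34.3 and 73.2 CPM in pDC. The log2 folds of Cd180 were -2.07 and -2.56 there, and its smallest difference was in cDC2 at -1.08. Naaa averaged 1250, 462 and 824 CPM in cDC1 and 256, 43.8 and 54.3 CPM in mDC, with log2 folds of -1.18 and -2.14. In pDC the interval of its UMI ratio, 0.526 to 1.31, included 1. P2ry6, Rnase6 (a secreted ribonuclease), Camk1d (a calcium-dependent kinase), Grap (a signalling adaptor), Dpy19l1, Rassf4, Mbnl1 (a splicing regulator) and 5031439G07Rik followed, with median log2 folds of -1.28 to -0.80.

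**Figure D2:**
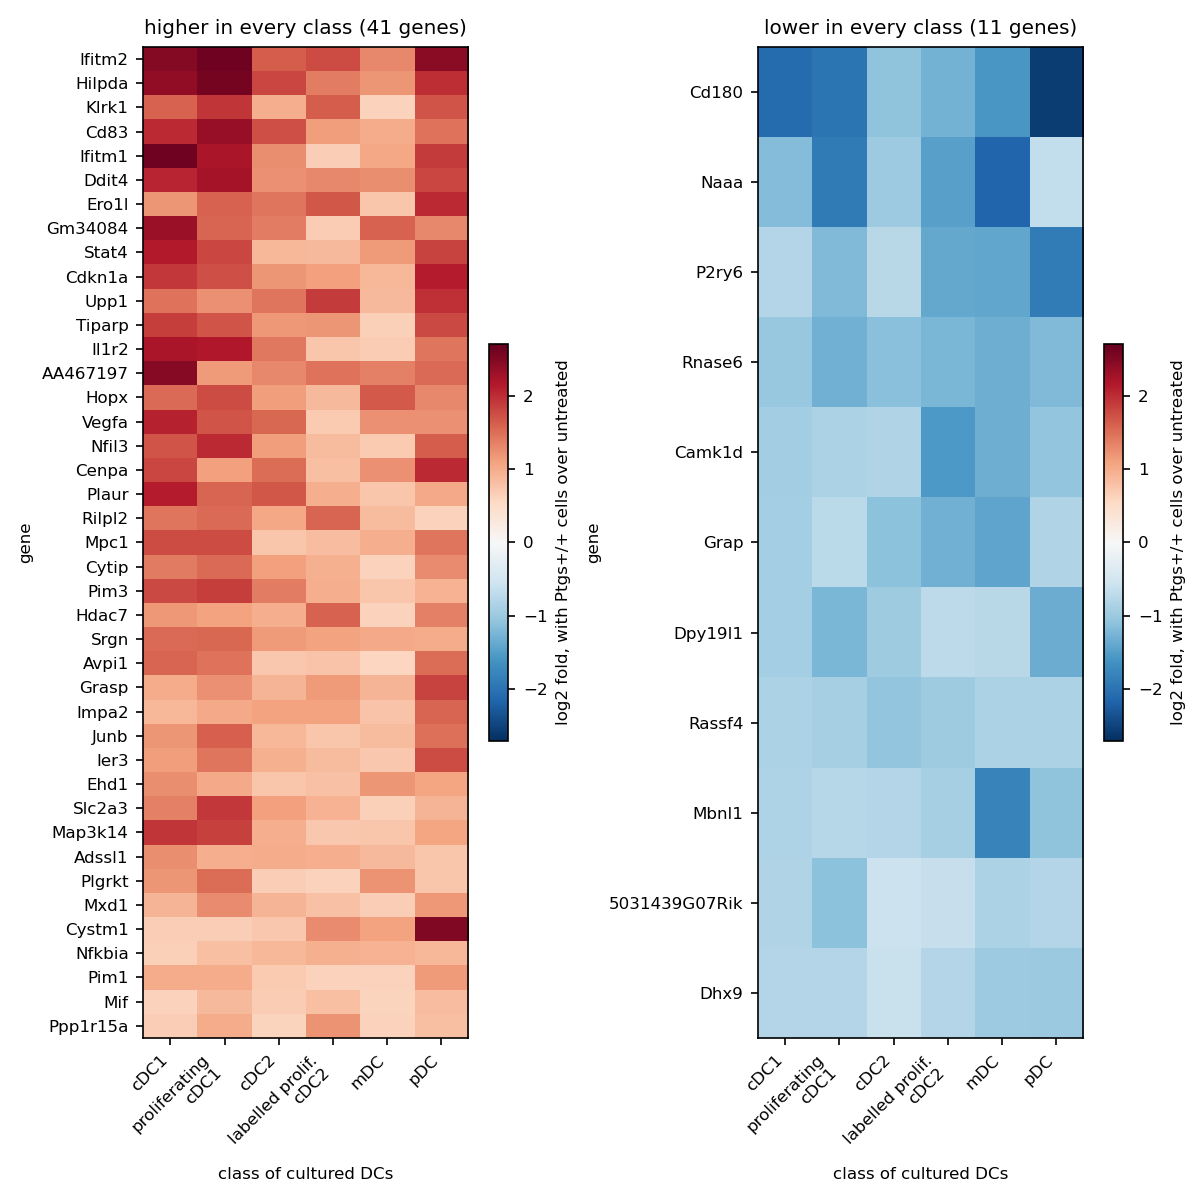
Log2 fold of mean CPM + 5 (with Ptgs+/+ cells over untreated, relative to the median gene of the class) for the 41 genes higher and the 11 genes lower past 1.5-fold in all 6 classes, in order of the median over classes; red is higher and blue lower. Ifitm2 and Hilpda lead the higher genes and Cd180 the lower ones.

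Genes of DC maturation and migration were more often higher than lower in each class. Of the members of this list seen in at least 5% of cells, 10 of 16 were higher and 0 lower in cDC1, 12 of 18 and 0 in proliferating cDC1, 12 of 19 and 0 in cDC2, 6 of 19 and 0 in the cluster labelled proliferating cDC2, 11 of 23 and 1 in mDC, and 12 of 17 and 1 in pDC. With all cells, their median log2 fold was lowest in the cluster labelled proliferating cDC2 (0.32) and highest in pDC (1.09), where the median of all genes was -0.01. Without the cells rich in neutrophil-list UMIs, described with pDC below, it was 0.77 in pDC and 0.88 in cDC2. Over all genes that passed the same 5% filter, against which this and the following lists are read, 7.63% were higher and 5.44% lower in cDC1, 8.08% and 6.4% in proliferating cDC1, and 3.87% and 2.68% in cDC2. These shares were 9.06% and 8.03% in the cluster labelled proliferating cDC2, 8.9% and 10.5% in mDC, and 13.6% and 14.3% in pDC. Cd83, a glycoprotein of mature DCs, averaged 56.1 CPM in untreated cDC1, 204 with Ptgs+/+ cells and 190 with Ptgs-/- cells. In cDC2 Cd83 averaged 27.2, 93.4 and 85.2 CPM, and in mDC 507, 839 and 748 CPM. Its log2 folds in these classes were 2.01, 1.73 and 1.00, and the 95% interval of the UMI ratio in cDC1 was 3.22 to 3.88.

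Ccr7 averaged 12 CPM in untreated cDC1, 41.7 with Ptgs+/+ cells and 16.6 with Ptgs-/- cells. In mDC Ccr7 averaged 854, 1480 and 1130 CPM, a log2 fold of 1.07 (UMI ratio 1.73 to 1.92). In the cluster labelled proliferating cDC2 it averaged 19.4, 18.9 and 15.2 CPM, a log2 fold of 0.08. Fscn1 behaved otherwise: in mDC it averaged 595, 538 and 474 CPM, a log2 fold of 0.14, and elsewhere at most 9.3 CPM. Thus in mDC Ccr7 stood past 1.5-fold and Fscn1 did not. Besides Cd83 and Ccr7, the members of this list with the largest folds were Marcksl1 and Relb in pDC, Traf1 and Samsn1 in cDC1, and Samsn1 and Il4i1 in cDC2.

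Co-stimulatory ligands differed by class. Cd86, a ligand of CD28, averaged 166 CPM in untreated mDC, 286 with Ptgs+/+ cells and 215 with Ptgs-/- cells, and its log2 folds were 1.05 in mDC, 0.86 in cDC2 and 0.75 in cDC1. Cd80, the other CD28 ligand, averaged 17.8, 36.6 and 33.9 CPM in cDC2 (0.99) and 104, 118 and 132 CPM in mDC (0.45). Cd40, the receptor through which helper T cells license DCs, averaged 31, 70.7 and 44.3 CPM in mDC (1.35; UMI ratio 1.44 to 2.35) and at most 10.4 CPM in the other classes. Cd70, the ligand of CD27, averaged 47.2, 125 and 76.4 CPM in mDC (1.60; UMI ratio 1.94 to 2.91). Of the B7 and TNF family ligands seen, 5 of 10 were higher and 2 lower in mDC, with a median log2 fold of 0.75, and 3 of 7 and 0 in cDC1, with a median of 0.10. The cluster labelled proliferating cDC2 had 0 of 8 higher and 1 lower, where 9.06% and 8.03% of all genes were.

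Cd274, which encodes the inhibitory ligand PD-L1, averaged 5.75 CPM in untreated cDC1, 40.5 with Ptgs+/+ cells and 22.1 with Ptgs-/- cells, a log2 fold of 2.32 (UMI ratio 4.84 to 8.37). In mDC Cd274 averaged 168, 265 and 233 CPM, a log2 fold of 0.92. The list of checkpoint and regulatory genes as a whole had medians of only 0.07 to 0.31 over the classes, and in mDC 6 of its 14 seen members were higher and 3 lower. In cDC2 Tnfrsf9, the co-stimulatory receptor 4-1BB, averaged 20, 143 and 60 CPM, a log2 fold of 2.68.

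Il12b, which encodes the p40 subunit of interleukin-12 and interleukin-23, had the highest fold of all genes seen in mDC. It averaged 38.8 CPM untreated, 202 with Ptgs+/+ cells and 239 with Ptgs-/- cells, a log2 fold of 2.53 (UMI ratio 4.33 to 6.94). In the other classes it averaged at most 2.08 CPM. Both cultures with tumour cells thus stood above the untreated culture for Il12b. Il1b, the cytokine interleukin-1 beta, averaged 125 CPM in untreated mDC, 566 with Ptgs+/+ cells and 159 with Ptgs-/- cells, a log2 fold of 2.41 (UMI ratio 3.18 to 3.99). In cDC1 Il1b averaged 9.58, 82.4 and 40.9 CPM (2.82) and in proliferating cDC1 10.7, 107 and 35.5 CPM (3.04).

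Other cytokines and chemokines were less uniform. Il6 averaged 2.88, 19.1 and 18.3 CPM in mDC, a log2 fold of 1.90 with a wide interval of the UMI ratio, 2.39 to 11.4. Ccl22, which draws regulatory and type 2 T cells through CCR4, averaged 2120, 3330 and 2410 CPM in mDC (0.94), while Ccl17, the other CCR4 ligand, averaged 955, 1010 and 1180 CPM there (0.36). In the cluster labelled proliferating cDC2 Ccl17 averaged 387, 95.4 and 65.4 CPM (-1.85). Ccl5, which draws T and NK cells, averaged 3190, 3450 and 5050 CPM in mDC (0.39) and 52.1, 321 and 152 CPM in the cluster labelled proliferating cDC2 (2.63). Ccl4, an inflammatory chemokine, averaged 16.3, 152 and 127 CPM in proliferating cDC1 (3.09) but 71.9, 33.2 and 68.4 CPM in mDC (-0.73).

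Cxcl9 and Cxcl10, which draw CXCR3+ T cells, were sparse, with at most 11.7 CPM for Cxcl10 and 5.17 CPM for Cxcl9 in any class of these 2 cultures. In cDC1 Cxcl10 had no UMI untreated and 29 UMIs with Ptgs+/+ cells. Set against a floor of 3 UMIs untreated, its share of the UMIs was at least 9.95-fold higher. Of the chemokines for T and NK cells and the cytokines of the interleukin-12 and interleukin-15 type, 4 of 10 seen were higher and 2 lower in mDC, with a median log2 fold of 0.38. Il15, which sustains NK and CD8 T cells, averaged 26.9, 6.32 and 12.6 CPM in mDC (-1.21), and the interval of its UMI ratio, 0.359 to 1.04, included 1.

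**Figure D3:**
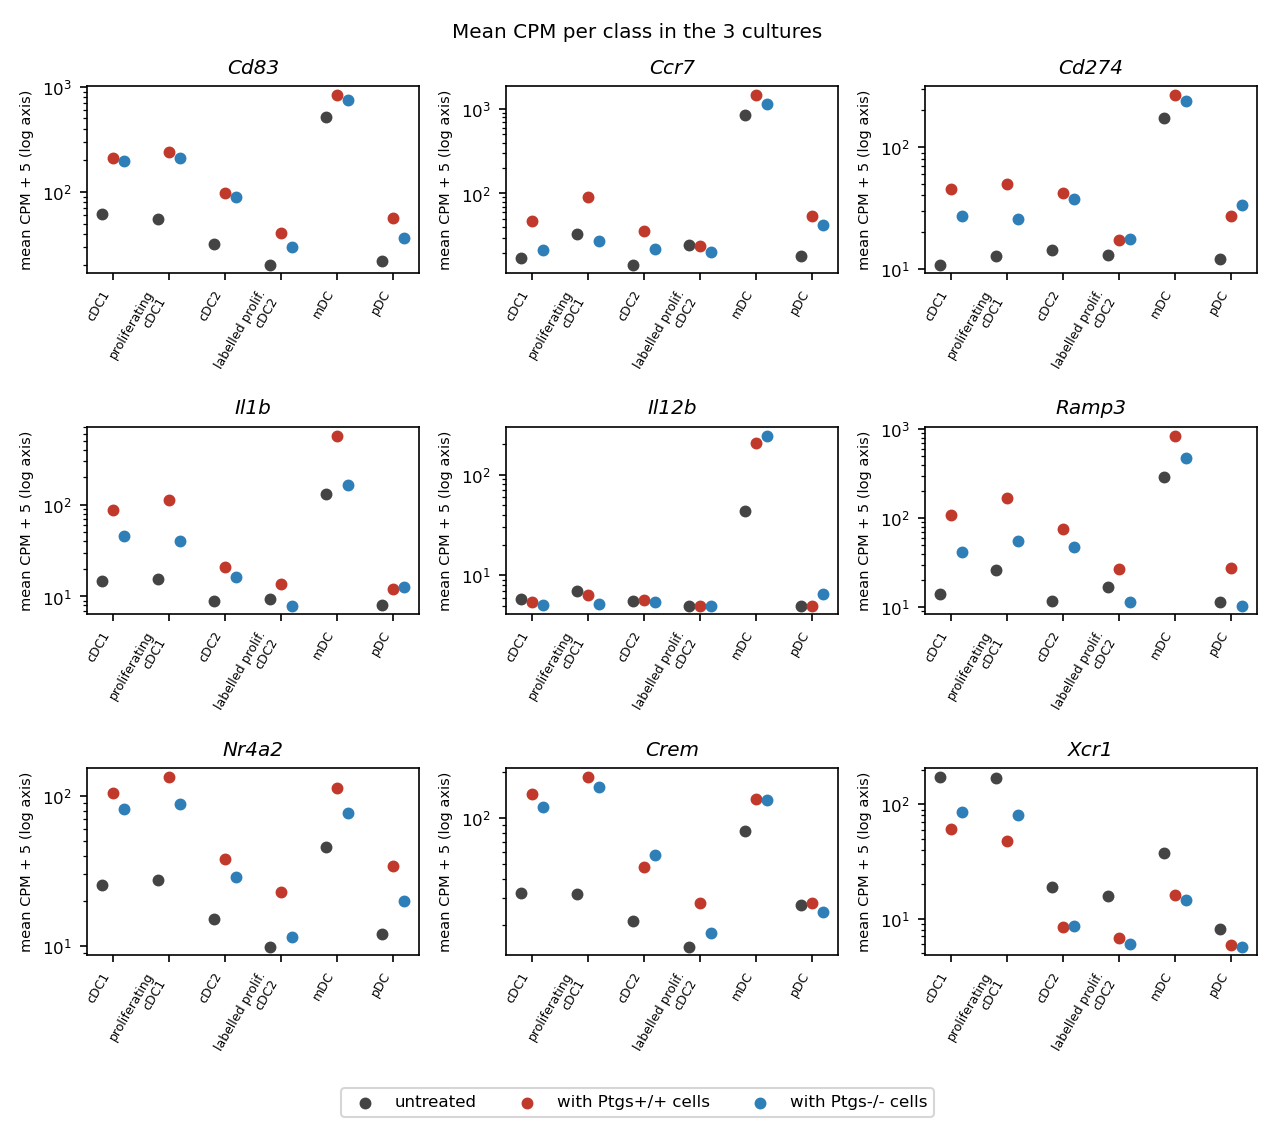
Mean CPM + 5 (log axis) of 9 genes in each class, 1 point per culture, which is the only culture of its condition. Il12b exceeds 2.08 CPM in no class but mDC, where it stands higher in both cultures with tumour cells (202 and 239 CPM) than untreated (38.8), while Xcr1 stands lower with Ptgs+/+ cells in cDC1 (56 against 170).

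Genes listed for prostaglandin and cyclic AMP signalling were more often higher than lower in each class. This list, like the others, was chosen with earlier results of these data known. It also holds genes such as the decoy receptor Il1r2, and activity of the pathway was not tested. Of the members seen, 12 of 21 were higher and 0 lower in cDC1, 12 of 22 and 2 in proliferating cDC1, 12 of 23 and 1 in cDC2, 10 of 23 and 4 in the cluster labelled proliferating cDC2, 10 of 21 and 2 in mDC, and 12 of 19 and 0 in pDC, with median log2 folds from 0.35 in mDC to 1.01 in pDC. Of all genes 7.63% were higher in cDC1 and 8.9% in mDC. Crem, a transcription factor gene that cyclic AMP induces, averaged 27.3 CPM in untreated cDC1, 138 with Ptgs+/+ cells and 112 with Ptgs-/- cells, a log2 fold of 2.38 (UMI ratio 4.05 to 5.23). In proliferating cDC1 Crem averaged 27.1, 181 and 155 CPM (2.74), and in pDC 22.1, 23 and 19.2 CPM (0.16). Nr4a2, an orphan nuclear receptor gene of the same kind, averaged 22.4, 130 and 83.5 CPM in proliferating cDC1 (2.51) and 40.5, 108 and 72.5 CPM in mDC (1.60). In proliferating cDC1 the untreated culture was the lowest of the 3 for both genes.

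Ramp3, which pairs with receptors of the calcitonin family that signal through cyclic AMP, had the highest fold of all genes seen in cDC1 and cDC2. It averaged 9.15 CPM in untreated cDC1, 104 with Ptgs+/+ cells and 37.1 with Ptgs-/- cells, a log2 fold of 3.18 (UMI ratio 8.56 to 13). In cDC2 Ramp3 averaged 6.87, 70.6 and 42.7 CPM (2.79) and in mDC 286, 845 and 476 CPM (1.83). Rgs1, a brake on G protein signalling, averaged 7.52, 64.2 and 43 CPM in cDC1 (2.71) and 262, 452 and 458 CPM in mDC (1.06). The prostaglandin receptors were low. Ptger2, the gene of EP2, averaged 6.92, 13.1 and 11.3 CPM in cDC1 (0.84), and Ptger4, the gene of EP4, 17.6, 9.83 and 13.3 CPM there (-0.37). In mDC Ptger4 averaged 67.7, 67.2 and 82.4 CPM (0.27). In the cluster labelled proliferating cDC2 the log2 fold of Ptger4 was -1.03. Without the cells rich in neutrophil-list UMIs, described with pDC below, it was -1.05 there, with 30.5 CPM untreated and 11 with Ptgs+/+ cells. Ptgs2, the inducible cyclooxygenase, averaged at most 10.9 CPM in any class of these 2 cultures.

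Genes of the NF-kB pathway and its feedback were higher in 10 of 18 members in cDC1, 13 of 18 in proliferating cDC1, 7 of 18 in cDC2, 9 of 18 in mDC and 7 of 17 in pDC, with median log2 folds of 0.66, 0.75, 0.33, 0.58 and 0.37, where 7.63%, 8.08%, 3.87%, 8.9% and 13.6% of all genes were higher. In the cluster labelled proliferating cDC2 5 of 18 were higher and 1 lower (median 0.22), and in pDC 1 was lower. Traf1, an adaptor of TNF receptors, averaged 12.7 CPM in untreated cDC1, 37.6 with Ptgs+/+ cells and 20.4 with Ptgs-/- cells (1.51). Rel, Bcl3 and Nfkbie, a subunit and inhibitors or co-regulators of the pathway, had the next largest folds in cDC1. Immediate-early genes had median log2 folds of 0.09 to 0.69 over the classes, and Junb and Ier3 of this list were higher in every class. Single members went both ways. Atf3 averaged 29.3, 140 and 155 CPM in proliferating cDC1 (2.29), whereas Egr1 averaged 68.6, 9.86 and 9.3 CPM in mDC (-2.02).

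Genes of hypoxia and glycolysis were more often higher than lower in each class, and most of those seen were higher in pDC and proliferating cDC1. In pDC 20 of 25 members seen were higher and 0 lower (median log2 fold 0.89), in proliferating cDC1 15 of 26 and 1 (0.64), in the cluster labelled proliferating cDC2 12 of 26 and 0 (0.52), in cDC1 9 of 26 and 0 (0.41), in cDC2 8 of 26 and 0 (0.42), and in mDC 6 of 26 and 0 (0.42). Of all genes 13.6% were higher in pDC and 8.9% in mDC. The summed list took 8540 CPM of pooled UMIs in untreated pDC, 14000 with Ptgs+/+ cells and 12300 with Ptgs-/- cells. Vegfa, the main angiogenic factor, averaged 24.9, 102 and 69.2 CPM in cDC1 (2.08; UMI ratio 3.39 to 4.46). Slc2a3, a glucose transporter, averaged 33.2, 119 and 83.4 CPM in proliferating cDC1 (1.91). Ndrg1, a hypoxia-induced gene, averaged 43.7, 154 and 108 CPM in pDC (1.83). Oxidative phosphorylation genes moved little: medians were 0.11 to 0.21, and at most 4 of 43 were higher in any class.

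Genes of DNA replication in S phase were more often lower than higher in every class but pDC, though in cDC2 and the cluster labelled proliferating cDC2 most lay within 1.5-fold. All 20 members seen in cDC1 were lower (median log2 fold -1.11), 14 of 22 in proliferating cDC1 (-0.83), 7 of 17 in cDC2 (-0.52), 4 of 22 in the cluster labelled proliferating cDC2 (-0.29) and 11 of 15 in mDC (-0.80), and none was higher there. Of all genes 5.44%, 6.4%, 2.68%, 8.03% and 10.5% were lower in these classes. In pDC 3 of 8 were higher and 1 lower (0.32). Mcm3, part of the helicase that opens replication origins, averaged 51.2 CPM in untreated cDC1, 8.24 with Ptgs+/+ cells and 12.7 with Ptgs-/- cells, a log2 fold of -1.85 (UMI ratio 0.131 to 0.207). Genes of G2 and mitosis differed less, with a median of 0.07 in proliferating cDC1, where 3 of 23 were higher and 1 lower. Mki67, the Ki-67 antigen, averaged 464, 262 and 356 CPM in proliferating cDC1 (-0.61).

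Aminoacyl-tRNA synthetases, which load tRNAs with amino acids and make up the list of amino acid and tRNA synthesis, were lower in 6 of 11 members in cDC1 (median -0.73), 8 of 11 in proliferating cDC1 (-0.93) and 5 of 11 in mDC (-0.56), and in 1 of 11 in cDC2 (-0.24). In the cluster labelled proliferating cDC2 2 of 11 were lower (-0.42), and in pDC 4 of 10 were lower and 1 higher (-0.34). Iars, the isoleucine synthetase, averaged 84.9 CPM in untreated proliferating cDC1, 24.9 with Ptgs+/+ cells and 34.5 with Ptgs-/- cells (-1.38). In the list of the integrated and ER stress response, 3 of 21 were higher and 5 lower in cDC1 (-0.24), 3 of 23 and 8 in proliferating cDC1 (-0.17), 3 of 22 and 0 in cDC2 (0.30), 5 of 25 and 2 in the cluster labelled proliferating cDC2 (0.16), 1 of 21 and 7 in mDC (-0.46) and 7 of 19 and 4 in pDC (0.20). Phgdh of that list, which starts serine synthesis, averaged 63, 10.3 and 23.5 CPM in proliferating cDC1 (-1.94) but 21.7, 20 and 21.6 CPM in cDC2 (0.03). Ddit4 was higher in every class and the single higher member in mDC, where Asns, Phgdh and Shmt2 were among the lower ones.

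Markers of cDC1 were more often lower than higher in each class, and in cDC2 and pDC most of those seen lay within 1.5-fold. Of the members seen, 7 of 13 were lower in cDC1 (median -0.81), 10 of 13 in proliferating cDC1 (-1.27), 5 of 11 in cDC2 (-0.49), 9 of 10 in the cluster labelled proliferating cDC2 (-1.03), 8 of 12 in mDC (-0.94) and 3 of 7 in pDC (-0.51), and none was higher. Their summed level in cDC1 was 4880 CPM of pooled UMIs untreated, 2550 with Ptgs+/+ cells and 3540 with Ptgs-/- cells. Xcr1, the receptor for the NK cell chemokine XCL1, averaged 170, 56 and 81.1 CPM in cDC1 (-1.28; UMI ratio 0.321 to 0.389). Clec9a, a receptor for actin of dead cells, averaged 145, 93.9 and 105 CPM there (-0.36), within 1.5-fold. Tlr3, a sensor of double-stranded RNA, averaged 127, 40.1 and 59.6 CPM in cDC1 (-1.31). The authors assigned the cells to cDC1 from the same expression values. The summed cDC1 markers were also lower in cDC2, at 1760, 1030 and 1080 CPM of pooled UMIs, and in mDC, at 1850, 1030 and 996, and the part of free RNA in those classes was not tested.

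The list of growth factor receptors of the culture also holds effectors, and receptors for factors other than FLT3L and GM-CSF, such as Kit and Il4ra. Its members were higher in 9 of 13 in cDC1 (median 0.65) and 6 of 13 in proliferating cDC1 (0.58), where 1 was lower. They were higher in 4 of 13 in cDC2 (0.39), 3 of 13 in the cluster labelled proliferating cDC2 (0.06), 2 of 13 in mDC (0.31) and 6 of 12 in pDC (0.42), with 1 lower in mDC and in pDC. Csf2rb, the signalling chain of the GM-CSF receptor, averaged 163, 340 and 279 CPM in cDC1 (1.28; UMI ratio 1.95 to 2.2), and Kit averaged 50.5, 106 and 83.8 CPM in proliferating cDC1 (1.21). Ccr2, a monocyte chemokine receptor that DC precursors also carry, averaged 242, 42 and 94.9 CPM in proliferating cDC1 (-2.19).

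Antigen presentation genes differed in direction by class. Of 14 MHC class II genes 5 were higher in cDC1 and 0 lower (median 0.37), and H2-Eb1, a class II beta chain, averaged 3360 CPM untreated, 5700 with Ptgs+/+ cells and 4560 with Ptgs-/- cells there (1.00). In the cluster labelled proliferating cDC2 10 of 14 were lower and 1 higher (-0.67), and H2-Ab1 averaged 3030, 1430 and 1360 CPM (-0.97). In that cluster the summed monocyte markers stood at 1700, 3210 and 3160 CPM of pooled UMIs and the progenitor markers at 202, 742 and 448, while the neutrophil markers stood at 420, 7300 and 1020. Mpo and Elane belong to both the progenitor and the neutrophil list. Without the cells rich in neutrophil-list UMIs, described with pDC, the class II median there was -0.62. The median log2 folds of the monocyte, progenitor and neutrophil lists were then 0.90, 1.45 and 0.74, against 0.92, 1.75 and 2.42 with all cells. Ctsg, a granule protease of early myeloid cells, averaged 1.31, 59 and 36.5 CPM there (3.46; UMI ratio 18.2 to 558), and Prtn3, another, 32, 230 and 153 CPM (2.78). Whether the cluster held other cells in the 2 cultures was not tested. Class I genes had medians of 0.03 to 0.12 outside pDC. In pDC 0 of 20 were higher and 5 lower (-0.29), where 13.6% and 14.3% of all genes were. Psmb10, a subunit of the immunoproteasome, averaged 196, 95.6 and 88.7 CPM there (-0.88).

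Interferon-induced genes did not move as a block. Type I interferon-induced genes had medians of 0.11 to 0.34 outside pDC and -0.32 in pDC, where 2 of 18 were higher and 5 lower, against 13.6% and 14.3% of all genes. In the cluster labelled proliferating cDC2 8 of 23 were higher and 1 lower, against 9.06% and 8.03% of all genes. In mDC 5 of 20 were higher and 0 lower, against 8.9% and 10.5%. The counts were 3 of 18 and 0 in cDC1, 4 of 19 and 1 in proliferating cDC1, and 1 of 21 and 1 in cDC2. Of all genes 7.63%, 8.08% and 3.87% were higher in these 3 classes. That list does not hold Ifitm1 and Ifitm2, which were higher in every class. Isg15, a ubiquitin-like protein of this response, averaged 107 CPM in untreated mDC, 323 with Ptgs+/+ cells and 227 with Ptgs-/- cells (1.83), but 212, 126 and 205 CPM in pDC (-0.62). Genes of the interferon-gamma response had medians below 0 in every class, from -0.46 to -0.17, and in mDC 0 of 14 were higher and 6 lower. Gbp2, a guanylate-binding protein of that response, averaged 53.4, 12.7 and 24.6 CPM in mDC (-1.44). Il10 had 0 UMIs in every class of these 2 cultures, and Ifnb1, the interferon-beta gene, 2 UMIs in untreated cDC1 and 0 in every other class.

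**Figure D4:**
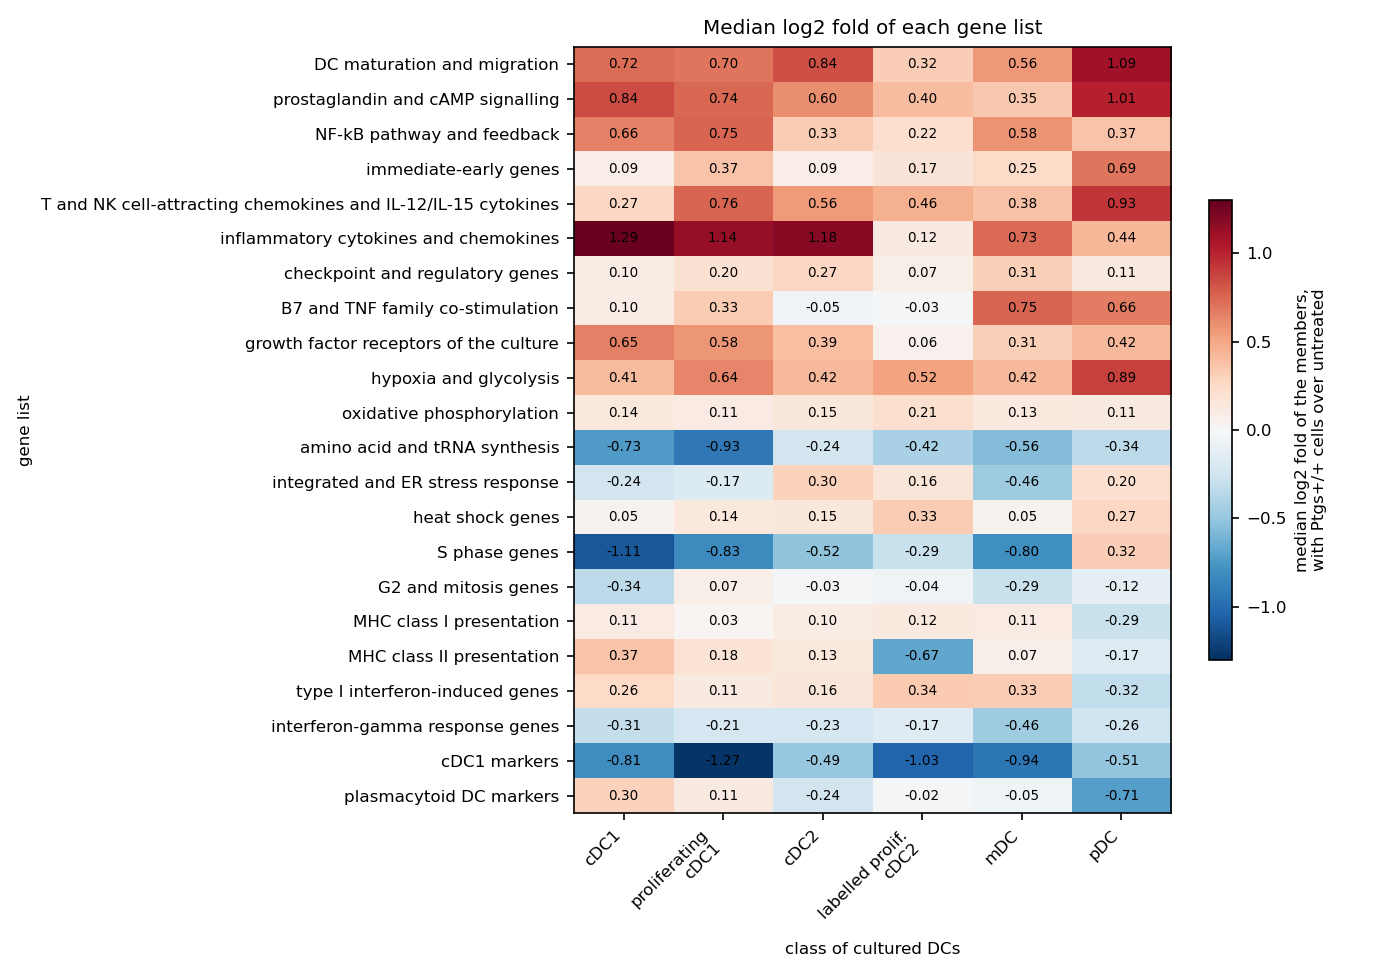
Median log2 fold of the members of each gene list (rows) in each class (columns), with Ptgs+/+ cells over untreated and relative to the median gene of the class. Maturation, prostaglandin, NF-kB and hypoxia lists are above 0 in all 6 classes and cDC1 markers, amino acid and interferon-gamma lists below 0 in all 6.

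In pDC, more of the genes that mark the lineage were lower than higher. Of 14 plasmacytoid DC markers 8 were lower and 0 higher (median -0.71), and their sum was 11100 CPM of pooled UMIs untreated, 6250 with Ptgs+/+ cells and 8190 with Ptgs-/- cells. Siglech, the pDC lectin, averaged 1180, 509 and 658 CPM (-1.09; UMI ratio 0.321 to 0.407), Ccr9, a homing receptor, 411, 153 and 193 CPM (-1.28), and Irf7, the main transcription factor of type I interferon production, 155, 61.6 and 115 CPM (-1.15). Calm4 had the lowest fold of all genes seen in pDC, from 84.8 CPM untreated to 1.41 with Ptgs+/+ cells (-3.69).

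The highest fold in pDC was that of Lcn2, a neutrophil granule protein, at 20 CPM untreated, 377 with Ptgs+/+ cells and 116 with Ptgs-/- cells (4.05), and S100a9, a calcium-binding protein of neutrophils, averaged 939, 6640 and 2400 CPM (2.93). All 5 neutrophil markers seen in pDC were higher, and the list summed to 3090, 22400 and 5830 CPM of pooled UMIs. This sum sat in few cells: with Ptgs+/+ cells 15 of 200 pDC gave at least 1% of their UMIs to the list and held 99.4% of its UMIs, against 2 of 200 untreated. In the cluster labelled proliferating cDC2 11 of 182 cells with Ptgs+/+ tumour cells and 1 of 137 untreated did so. Without such cells, an alternative chosen after seeing the data, the log2 fold in pDC was -0.11 for S100a9 and 1.61 for Lcn2, and the median of the neutrophil list -0.37. Thbs1, the matrix protein thrombospondin-1, averaged 16.4, 148 and 58.2 CPM in pDC (2.95) with all cells, and 11.3 CPM untreated and 58.6 with Ptgs+/+ cells without them (2.06). The pDC medians of hypoxia genes (0.88), prostaglandin genes (0.87) and pDC markers (-0.64) then stood near their values with all cells, while maturation genes stood at 0.77.

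**Figure D5:**
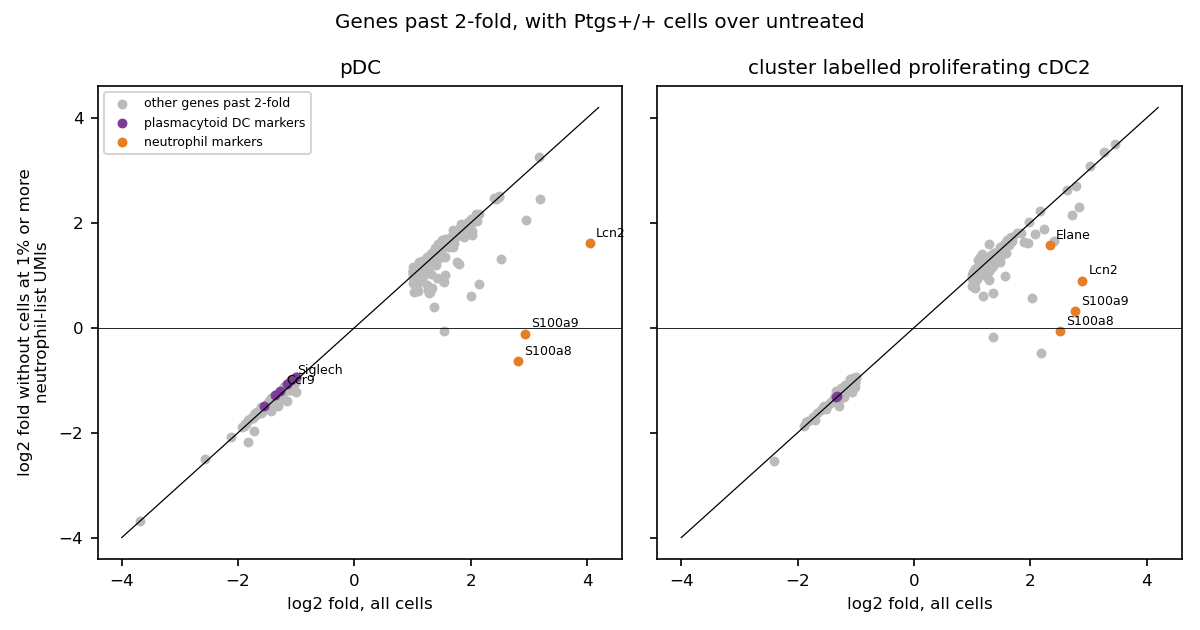
Log2 fold of genes past 2-fold (with Ptgs+/+ cells over untreated) with all cells (x axis) and without the cells that give at least 1% of their UMIs to the neutrophil list (y axis), in pDC and in the cluster labelled proliferating cDC2; the line marks equal values. S100a9 in pDC goes from 2.93 to -0.11, while Siglech and the other pDC markers past 2-fold lie near the line.

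Few genes met a rule for a difference limited to 1 class. It asks for a fold past 2 in that class and within 1.2 in every other class where the gene was seen. At least 2 other classes must see the gene, so genes seen in fewer could not be counted. Genes that met the rule numbered 0 in cDC1, 0 in cDC2, 1 in proliferating cDC1, 3 in the cluster labelled proliferating cDC2, 3 in mDC and 11 in pDC. In mDC Flot2, a membrane scaffold protein, averaged 5.94 CPM untreated, 17.6 with Ptgs+/+ cells and 13.7 with Ptgs-/- cells (1.33; UMI ratio 1.53 to 4.98), and Bcl2l1, the survival factor BCL-XL, 14.6, 29.6 and 30.8 CPM (1.10; 1.2 to 2.48). In proliferating cDC1 Slc14a1, a urea transporter, averaged 30.7, 10.1 and 19.5 CPM (-1.03; 0.307 to 0.503). Among the pDC genes Tmem176a, a membrane protein, averaged 29.4, 74.7 and 62.6 CPM (1.33; 1.28 to 3.33). These genes are sparse and the difference between classes was not tested.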

How the data were processed

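The deposited matrix holds log2 values per gene and cell, which the values show to be log2(CPM + 1): back-transformed, each cell sums to 999983 to 1000011 CPM. Whole UMIs were recovered from them (99.94% of values within 0.1 UMI plus 0.01%; 16 symbols with parts of a UMI have no UMI counts). Cell Ranger 3.0.2, mm10 and Partek are named, without settings, per the submitters' processing notes. Culture and class come from the authors' deposited annotation, whose names were read with the sample title. No cells were reclustered, no doublet caller was run and free RNA was not subtracted.

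Folds, filters and thresholds are given with the results. Computation used Python 3.11.15, numpy 2.4.6, pandas 2.3.3 and scipy 1.17.1, and was tested on simulated data. The genes named by rule are the 10 highest and lowest shared genes, 5 highest and 5 lowest per class, 3 per class limited to it, 2 to 4 list members of largest fold, and a fixed set. Most genes discussed are taken from these. Outside these rules, Map3k14 was picked from the shared higher genes and Mif and Ppp1r15a for their promoters. Anxa1, Spp1 and Wfdc17 were flagged for opposite signs in 2 classes. Receptor segments, haemoglobin, mitochondrial and ribosomal genes were left out of all rules but the fixed set. The members and the 45 lists were chosen with earlier results of these data known. Alternatives were other pseudocounts (1 and 20), depth weighting, thinning to 5000 UMIs, other filters, centring and 2-fold, and cells left out.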

Additional observations from a re-analysis of the deposited data

Results flagged for a closer look

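In 5 genes the difference between the cultures had opposite signs in 2 classes, each past 2-fold, and the difference between the classes was not tested. Anxa1 had a log2 fold of 1.52 in pDC and -1.41 in mDC. Without the cells rich in neutrophil-list UMIs Anxa1 stood at 0.89 in pDC, no longer past 2-fold. S100a8 had 2.81 in pDC and -1.95 in mDC, and S100a9 2.93 in pDC and -1.87 in mDC; without the cells rich in neutrophil-list UMIs S100a8 stood at -0.63 in pDC and 0.47 in mDC. Spp1 had 1.38 in pDC and -1.22 in cDC1, and without those cells it stood at 0.39 in pDC. Wfdc17 had 1.47 in proliferating cDC1 and -1.16 in the cluster labelled proliferating cDC2.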

How the results depend on the processing

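With a pseudocount of 20 the higher and lower counts were 269 and 166 in cDC1, 305 and 231 in proliferating cDC1, 92 and 87 in cDC2, 155 and 309 in the cluster labelled proliferating cDC2, 260 and 198 in mDC, 269 higher in pDC and 12 higher in every class; a pseudocount of 1 gave 406 lower in cDC2 and 1012 lower in the cluster labelled proliferating cDC2. At 2-fold they were 175 and 80, 197 and 99, 74 and 16, 152 and 120, 133 and 151, and 219 and 158 in the same order of classes, with 5 and 2 in every class. Without the median subtracted they were 255 and 1019, 334 and 1173, 177 and 440, 436 and 1041, and 213 and 1512 in the 5 classes other than pDC, and 16 and 31 in every class. With no filter on detection 1072 were higher in the cluster labelled proliferating cDC2, 1016 higher in mDC, and 1858 higher and 1537 lower in pDC; genes in at least 5% of cells gave 949 and 1002 in pDC. Thinning to 5000 UMIs, which leaves out 72% of untreated pDC, gave 954 and 1046 in pDC, 22 higher in every class, of which 15 are among the 41, and shares of Ccr7 and Fscn1 cells of 3.52% and 14.4%. Without cells rich in neutrophil-list UMIs 36 of the 41 genes and all 11 kept their place. Without cells with a UMI of S100a8, C1qa, Cd79a, Ncr1 or Cd3e, 28 of the 41 and 9 of the 11 did. With a pseudocount of 20, 12 of the 41 and 7 of the 11 did, and after thinning 8 of the 11. The cause of these shifts was not tested.

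Signs turned as follows. Without cells rich in neutrophil-list UMIs (chosen after seeing the data) the neutrophil list stood at 0.20 in mDC and -0.37 in pDC, S100a8 at 0.47 in mDC, -0.63 in pDC and -0.07 in the cluster labelled proliferating cDC2, S100a9 at -0.11 in pDC and -0.01 in proliferating cDC1, Serpinb1a at -0.06 in pDC, and Csta2 at -0.29 and Chil3 at -0.18 in the cluster labelled proliferating cDC2. Without cells with a UMI of S100a8, C1qa, Cd79a, Ncr1 or Cd3e, which leaves no S100a8 by its construction, the neutrophil list and S100a9 stood at -0.12 in proliferating cDC1, S100a8 (at 0 UMIs on both sides, so only the centring shows) at 0.29 and Ccl4 at 0.09 in mDC, Naaa at 0.39 and Serpinb1a at -0.55 in pDC, and Csta2 at -0.08 and Slc7a11 at -0.28 in the cluster labelled proliferating cDC2. Thinned, Ramp3 stood at -0.21 in that cluster, Ccl4 at 0.05 in mDC, and Phgdh at 0.30 and Tars at 0.43 in pDC. With all members in the matrix the neutrophil list stood at 0.02 in mDC, and with members in at least 10% of cells the B7 and TNF family list at -0.54 in pDC. Class shares gave no value because leading genes differed in each class. No paired analysis was possible because each condition is 1 culture.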
